A study of Mus musculus with 6 samples.

Results

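The transcripts described here are those of Csf1, of its receptor Csf1r, and of 7 genes used as markers of resident macrophages in the muscle layers of the gut: Adgre1, Cd163, Lyz2, Cd68, Mertk, Folr2 and Timd4. Every probe set of the array whose only annotated gene symbol was 1 of these 9 names was taken, which gave 14 of 45101 probe sets, and 9 of the 18193 genes that could be tested. The libraries came from the colon of Mapttm1(EGFP)Klt/J mice, in which EGFP is expressed from the Mapt locus, and cells of the myenteric plexus, a network of nerve cells within the muscle of the gut wall, had been separated by fluorescence into EGFP-positive cells, labelled as colonic neurons, and EGFP-negative myenteric cells. There were 3 libraries of each kind, numbered 1 to 3, and each pooled cells of 2, 4 or 6 mice without a record here of which. The mice of both groups carried the same allele and had been given a fluorescent cholera toxin subunit (3 to 5 μL at 25 mg/mL) into the celiac ganglion at laparotomy 3 to 4 days before they were killed, so no library comes from unoperated animals. The labels used here give no age, sex or copy number of the allele.

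CSF1 is a secreted and membrane-bound cytokine on which most tissue macrophages depend for survival, and CSF1R is the tyrosine kinase on their surface that receives it. IL-34 is the other ligand of the same receptor. In the gut wall, resident macrophages lie beside the nerve cells of the myenteric plexus, and enteric neurons are known as a source of CSF1 while macrophages carry the receptor. Of the markers, Adgre1 encodes the surface protein by which mouse macrophages are commonly stained; Cd68 a glycoprotein of their endosomes and lysosomes; and Lyz2 a lysozyme of myeloid cells. Cd163 encodes the receptor that takes up haemoglobin bound to haptoglobin, Folr2 a folate receptor, Mertk a kinase that recognises dying cells through bridging proteins, and Timd4 a receptor for phosphatidylserine.

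All levels are log2 expression values, so that a difference of 1 is a doubling, and every difference is the EGFP-positive mean minus the EGFP-negative mean, from limma over all genes with Benjamini-Hochberg adjustment. The background, read from the 3 probe sets for TrpnX, a bacterial transcript that was not added, lay between 1.00 and 1.48. Between 6182 and 7621 probe sets per library read above 6. Mapt itself, the check of the sort, read 5.55 in EGFP-positive library 3 and between 1.32 and 1.64 in the other 5 libraries, including both other libraries labelled EGFP-positive, and all 15 pan-neuronal genes measured were likewise highest in library 3. An EGFP insertion at Mapt can change its transcript, and the labels do not say which probe sets it spares, so Mapt alone does not settle what was sorted. The directions below are therefore those of libraries labelled EGFP-positive, and values without libraries 1 and 2 are given where they matter.

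Most of the macrophage transcripts read lower in the EGFP-positive libraries, which spread widely among themselves, while the Csf1 and Mertk values of the groups overlapped fully. The means of 7 of the 9 members were lower there (median difference −2.07, against −0.017 over all genes, of which 53.6% had a lower mean). The largest member differences were those of Cd68 (−4.10, SE 0.98) and Lyz2 (−3.40, SE 1.13). None of the 9 passed the threshold of adjusted p 0.05, and neither did any other gene: limma called 0 of 18193 genes (0%) and 0 of 34945 probe sets (0%), with smallest adjusted p-values of 0.34 and 0.391, while 893 genes and 1945 probe sets had an unadjusted p under 0.05. Without EGFP-positive library 1, 2 genes passed, Fermt3 (−5.72, limma adjusted p = 0.0108) and Ccr2 (−5.72, limma adjusted p = 0.0251), and no member did. In sorted bulk cells, fewer macrophages and less of a transcript per macrophage cannot be told apart.

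**Figure D1:**
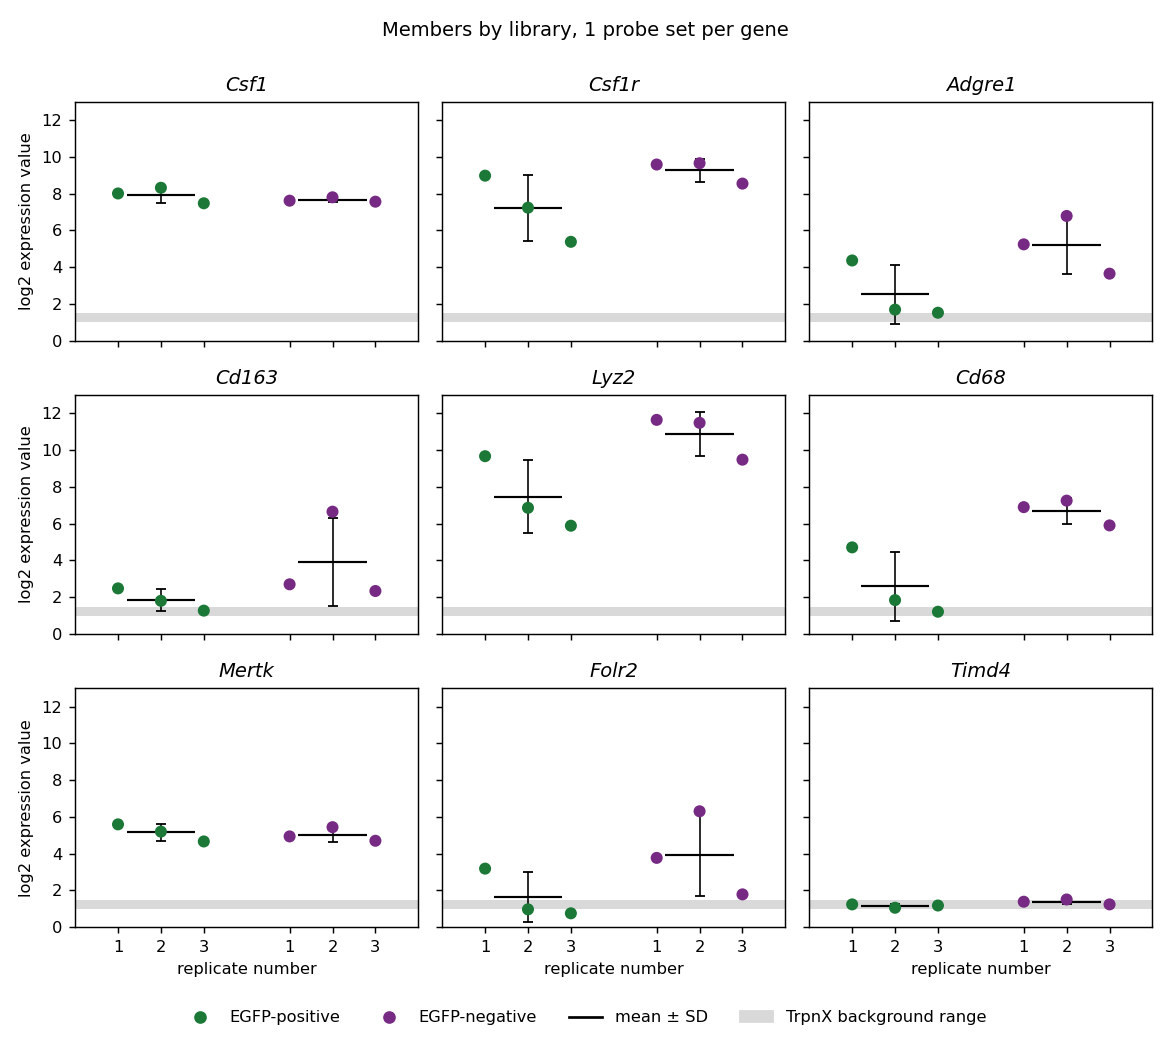
Log2 expression value (vertical axis) of each member in the 3 EGFP-positive (green) and 3 EGFP-negative (purple) libraries, by replicate number; horizontal lines and bars are the group mean ± SD and the grey band is the TrpnX background range of 1.00 to 1.48. Cd68 is the gene whose green points all lie below its purple points, Csf1 lies between 7.48 and 8.32 in all 6 libraries, and Cd163 and Folr2 are highest in EGFP-negative library 2.

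The ligand was measured at a clear level in every library. The brightest Csf1 probe set, 1460220_a_at, read 8.01, 8.32 and 7.48 in EGFP-positive libraries 1, 2 and 3, and 7.62, 7.80 and 7.57 in the EGFP-negative ones. The lowest and the highest of these 6 values were both EGFP-positive, so the groups overlapped fully. The means were 7.94 ± 0.43 (SD, n = 3) and 7.66 ± 0.12 (SD, n = 3), and the difference of 0.28 had a 95% interval from −0.32 to 0.87 (limma adjusted p = 1.00). It turned to −0.18 when EGFP-positive libraries 1 and 2 were both left out. EGFP-positive library 3, the library with the neuronal transcripts, thus held the lowest value of this Csf1 probe set.

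The other 3 Csf1 probe sets were dimmer and did not share a direction. Probe set 1448914_a_at read 4.14, 3.94 and 3.20 against 3.13, 2.95 and 3.36, a difference of 0.61 (SE 0.28). For 1425155_x_at the difference was −0.16 (SE 0.55) and for 1425154_a_at −0.18 (SE 0.14). The last of these did not overlap between the groups, but its 3 EGFP-positive values were all 3.05 and its lowest EGFP-negative value was 3.07.

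Il34, which encodes the second ligand, read 2.60 in EGFP-positive library 3 and between 1.02 and 1.62 in the other 5 libraries, at or close to background. Its difference of 0.32 (SE 0.44) became −0.17 without that 1 library and −0.10 when arrays were weighted by quality.

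The receptor did not follow the ligand. Csf1r probe set 1419872_at read 8.98, 7.24 and 5.38 in EGFP-positive libraries 1, 2 and 3, and 9.59, 9.66 and 8.55 in EGFP-negative libraries 1, 2 and 3. EGFP-positive library 1 lay above EGFP-negative library 3, while EGFP-positive libraries 2 and 3 lay below every EGFP-negative library. The means were 7.20 ± 1.80 (SD, n = 3) and 9.27 ± 0.62 (SD, n = 3), a difference of −2.07 with a 95% interval from −4.40 to 0.27 (limma adjusted p = 1.00). Leaving out EGFP-positive library 3 brought it to −1.16, and leaving out EGFP-positive libraries 1 and 2 to −3.88. Even the lowest value of this probe set, in the library highest in neuronal genes, was well above background. In that library, however, probe sets 1419873_s_at and 1423593_a_at of Csf1r read only 2.48 and 2.86.

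All 3 Csf1r probe sets were lower in the EGFP-positive libraries. Probe set 1419873_s_at read 7.31, 5.23 and 2.48 against 7.72, 8.13 and 6.51, a difference of −2.45 (SE 1.25). Probe set 1423593_a_at read 4.26, 3.20 and 2.86 against 4.62, 6.02 and 4.62, a difference of −1.65 (SE 0.54), and here the groups did not overlap. In each of the 3 the EGFP-positive library 1 was highest of its group and library 3 lowest.

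**Figure D2:**
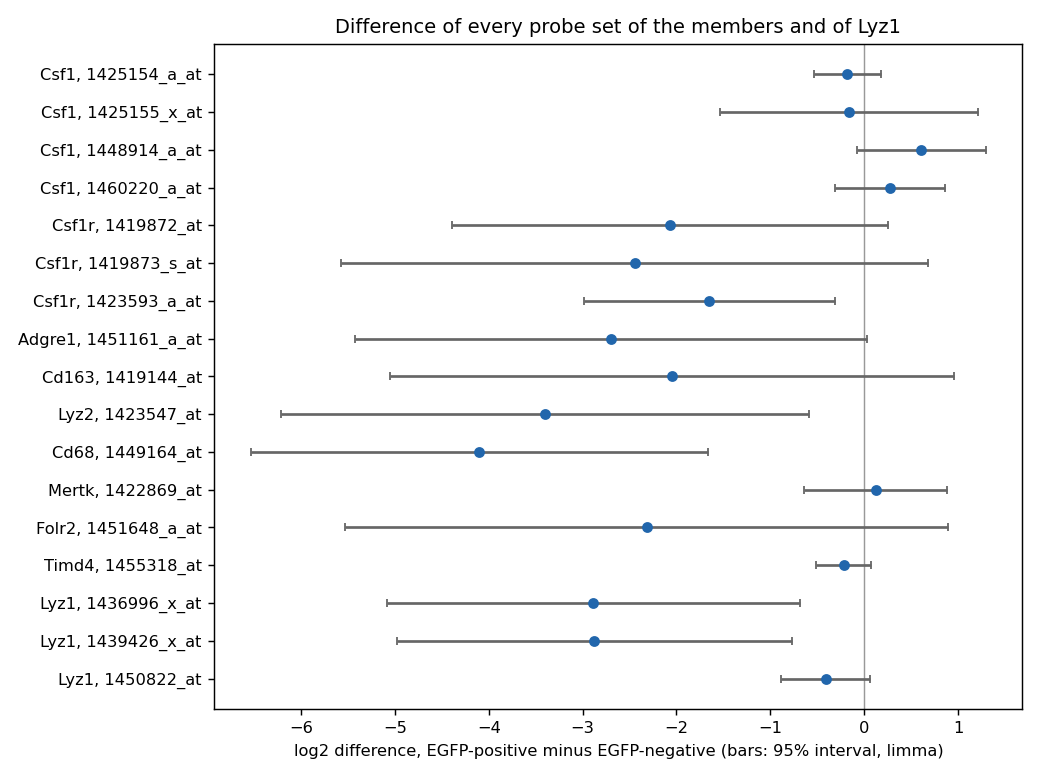
Log2 difference, EGFP-positive minus EGFP-negative (horizontal axis), of each of the 14 member probe sets and of the 3 Lyz1 probe sets; points are limma estimates from the fit over all probe sets and bars their 95% intervals. The 3 Csf1r estimates lie between −2.45 and −1.65, whereas the 4 Csf1 estimates lie on both sides of 0.

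Receptor and ligand were also set against each other within each array. The Csf1r value minus the Csf1 value was 0.97, −1.08 and −2.10 in EGFP-positive libraries 1, 2 and 3, and 1.97, 1.86 and 0.98 in the EGFP-negative libraries. The lowest EGFP-negative value exceeded the highest EGFP-positive value by a narrow margin. The shift of −2.34 gave p = 0.1 in a two-sided exact permutation test. That is the smallest p that 3 against 3 libraries allow, and the test did not pair libraries by replicate number. The shift ranged from −3.19 to −1.66 when 1 library was left out. Only the shift is informative here, since levels of different probe sets are not on a common scale.

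The lysosomal and myeloid markers showed the widest gaps. Cd68 read 4.71, 1.84 and 1.21 in EGFP-positive libraries 1, 2 and 3, and 6.90, 7.25 and 5.91 in the EGFP-negative libraries. Every EGFP-negative value was higher than every EGFP-positive one, and EGFP-positive library 3 lay within the background range. The means were 2.59 ± 1.87 (SD, n = 3) and 6.69 ± 0.70 (SD, n = 3), and the difference of −4.10 had a 95% interval from −6.54 to −1.66 (limma adjusted p = 0.951). Cd68 was the 1 member of 9 whose groups did not overlap, with the EGFP-positive values lower, as was so for 6.04% of all genes. It was also 1 of 2 members, with Lyz2, that had a lower level at an unadjusted p under 0.05, as did 3.43% of all genes. No member was higher by either measure, for which the shares of all genes were 3.07% and 1.48%.

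Lyz2 read 9.67, 6.86 and 5.89 in EGFP-positive libraries 1, 2 and 3, and 11.65, 11.49 and 9.49 in the EGFP-negative libraries. The groups overlapped by a small margin, between EGFP-positive library 1 and EGFP-negative library 3. The means were 7.48 ± 1.96 (SD, n = 3) and 10.88 ± 1.21 (SD, n = 3), a difference of −3.40 with a 95% interval from −6.22 to −0.58 (limma adjusted p = 0.986). Lyz2 stayed far above background even in the lowest library.

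Lyz1, the neighbouring lysozyme gene known from Paneth cells and close to Lyz2 in sequence, carried 3 probe sets that allow a partial check. Probe set 1436996_x_at read 11.15, 8.76 and 8.10 against 12.82, 12.56 and 11.30, and 1439426_x_at differed by −2.88 (SE 0.85). The suffix of these probe sets marks probes that may also match other transcripts, and like Lyz2 both were lowest in EGFP-positive library 3 and highest in EGFP-negative library 1. Unlike Lyz2, their groups did not overlap: EGFP-positive library 1 lay above EGFP-negative library 3 for Lyz2 and below it for both Lyz1 probe sets. The third, 1450822_at, read between 1.09 and 1.37 in the EGFP-positive and between 1.36 and 1.96 in the EGFP-negative libraries, near background. Signal of the 2 lysozyme transcripts in the brighter Lyz1 probe sets can therefore not be told apart.

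Promoter sequence is shown for Cd68, the member whose groups did not overlap, for Lyz2 with its near copy Lyz1, and for Csf1, whose groups overlapped fully. The sequences are the 250 bases before each annotated start in RefSeq's GRCm38.p6 annotation, printed 5′ to 3′ on the gene's strand, which is the minus strand for all 4. RefSeq windows were kept for 7 of the 9 members. The selection left out every window on the chromosome of Csf1r, so whether Csf1r had a window is not shown here. Cd68 lies at chr11:69666171-69666420, Lyz2 at chr10:117282273-117282522, Lyz1 at chr10:117292869-117293118 and Csf1 at chr3:107760470-107760719. Capitals mark GAGGAA, the core bound by the myeloid factor PU.1, searched on both strands.
Cd68: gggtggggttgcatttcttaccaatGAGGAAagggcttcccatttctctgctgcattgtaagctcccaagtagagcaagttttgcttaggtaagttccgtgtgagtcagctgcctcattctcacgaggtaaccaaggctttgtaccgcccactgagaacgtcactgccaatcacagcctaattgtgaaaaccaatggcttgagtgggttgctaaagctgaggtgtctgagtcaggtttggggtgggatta
Lyz2: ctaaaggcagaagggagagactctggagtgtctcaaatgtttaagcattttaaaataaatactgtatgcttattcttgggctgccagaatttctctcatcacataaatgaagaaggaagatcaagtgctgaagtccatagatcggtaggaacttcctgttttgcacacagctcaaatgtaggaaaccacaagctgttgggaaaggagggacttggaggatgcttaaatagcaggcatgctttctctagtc
Lyz1: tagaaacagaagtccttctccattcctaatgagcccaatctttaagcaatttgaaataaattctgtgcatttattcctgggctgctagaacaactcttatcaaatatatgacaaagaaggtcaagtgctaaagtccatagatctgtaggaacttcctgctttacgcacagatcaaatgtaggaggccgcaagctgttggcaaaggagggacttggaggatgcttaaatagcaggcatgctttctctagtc
Csf1: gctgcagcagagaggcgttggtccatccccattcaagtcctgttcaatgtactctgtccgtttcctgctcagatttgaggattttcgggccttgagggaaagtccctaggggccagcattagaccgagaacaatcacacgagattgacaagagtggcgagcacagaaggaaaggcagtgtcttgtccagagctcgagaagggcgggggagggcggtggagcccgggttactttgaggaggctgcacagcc

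GAGGAA occurred once, in the Cd68 window, 225 bases before the start, and in 0 windows of the other 6 members searched. Csf1r and Adgre1 were not searched, so every count here leaves out the receptor gene. The same letters stood in 23.3% of the 32851 windows of this length in the table. TTNCNNAA, a loose form of the C/EBP motif, found in 36.8% of all windows, had 3 matches in Cd68, 2 overlapping ones in Cd163, 1 in Lyz2 and 1 in Lyz1. TGANTCA, the AP-1 motif, was found in 6.75% of all windows, 2 times in that of Cd68, 149 and 24 bases before the start, and 1 time in 1 of the 2 Folr2 windows, 74 bases before the start. CACGTG, the E-box, was found in 6.02% of all windows and in 0 of the members' windows that were searched. The Lyz1 and Lyz2 windows were identical at 200 of 252 aligned positions, or 79.4%. These matches describe the letters in the windows and were not tied to the array values.

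Adgre1, the surface marker, read 4.37, 1.69 and 1.52 in EGFP-positive libraries 1, 2 and 3, and 5.24, 6.79 and 3.65 in the EGFP-negative libraries. The EGFP-positive libraries 2 and 3 were just above the background range, and EGFP-positive library 1 lay above EGFP-negative library 3. The means were 2.53 ± 1.60 (SD, n = 3) and 5.23 ± 1.57 (SD, n = 3), a difference of −2.70 with a 95% interval from −5.44 to 0.04 (limma adjusted p = 1.00). Among its relatives of the adhesion receptor family, Adgre4 read 1.66, 1.13 and 1.37 against 1.87, 4.44 and 2.11, and was like Adgre1 highest in EGFP-negative library 2. Adgre5, found on many leukocytes, differed by −0.70 (SE 0.26).

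The scavenger receptor Cd163 and the folate receptor Folr2 stood out in 1 library. Cd163 read 6.65 in EGFP-negative library 2, against 2.70 and 2.34 in EGFP-negative libraries 1 and 3 and 2.48, 1.80 and 1.27 in EGFP-positive libraries 1, 2 and 3. Apart from that library, all values lay between 1.27 and 2.70 and the groups overlapped. The difference of −2.05 (SE 1.21, limma adjusted p = 1.00) shrank to −0.67 without EGFP-negative library 2.

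Folr2 read 6.31 in EGFP-negative library 2, and 3.77 and 1.79 in EGFP-negative libraries 1 and 3. In the EGFP-positive libraries it read 3.19, 0.97 and 0.76. Library 1 of the EGFP-positive group lay above EGFP-negative library 3, and its other libraries were below the background range. The difference of −2.32 (SE 1.29, limma adjusted p = 1.00) became −1.14 without EGFP-negative library 2. The related folate receptor Folr1 did not follow this order: it read 6.04, 3.19 and 1.40 against 3.76, 2.69 and 2.05, and was highest in EGFP-positive library 1.

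The same library was high in some other genes of resident macrophages. Fcna, a ficolin made by macrophages, read 7.02 in EGFP-negative library 2 and between 1.04 and 2.93 elsewhere. Cbr2, a carbonyl reductase found in resident macrophages, read 6.10 there and between 0.57 and 4.35 elsewhere, and Vsig4, a complement receptor, 4.20 there and between 0.86 and 2.35 elsewhere. These were picked after their values were seen. In counts, 6 of the 9 members and 7 of 14 genes of a list of tissue-resident macrophage genes were highest in EGFP-negative library 2, as were 3453 of all 18193 genes. The neutrophil list differed in this respect, with 8 of its 10 genes highest in EGFP-negative library 3.

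The receptors for dying cells gave no common picture. Mertk read 5.60, 5.20 and 4.67 in EGFP-positive libraries 1, 2 and 3, and 4.94, 5.44 and 4.70 in the EGFP-negative libraries. The groups overlapped fully, with means of 5.16 ± 0.47 (SD, n = 3) and 5.03 ± 0.38 (SD, n = 3) and a difference of 0.13 (95% interval from −0.64 to 0.89), whose sign depended on which libraries and scaling were used. Its relatives Axl (difference 0.12, SE 0.35) and Tyro3 (0.88, SE 0.88) and their bridging ligand Gas6 (0.23, SE 0.50) overlapped too. Tyro3 read 5.82 in EGFP-positive library 3 and between 2.62 and 3.30 elsewhere, and without that library its difference was −0.14, while that of Axl was −0.03. The difference of Gas6 turned to −0.09 without EGFP-positive library 1.

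Timd4 was not distinguishable from background. It read 1.24, 1.06 and 1.18 in the EGFP-positive and 1.39, 1.51 and 1.24 in the EGFP-negative libraries, and its difference of −0.22 (SE 0.12) is between values at or near the TrpnX range. Lyve1, a hyaluronan receptor of some resident macrophages and of lymphatic vessels, read 8.72, 10.72 and 6.46 against 9.01, 10.63 and 7.65. It was highest in number 2 and lowest in number 3 of either group, and its difference of −0.46 (SE 1.28) changed sign when EGFP-positive library 3 was left out (0.62), when EGFP-negative library 2 was left out (0.31) and when arrays were weighted (0.08).

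Libraries that share a replicate number were also compared directly. Cd68 differed by −2.19, −5.41 and −4.70 within numbers 1, 2 and 3, and Lyz2 by −1.98, −4.63 and −3.60. Csf1r differed by −0.61, −2.42 and −3.17. Adgre1, Cd163 and Folr2 differed most within number 2, by −5.10, −4.85 and −5.34, and by −0.88, −0.22 and −0.59 within number 1. For 7 of the 9 members all 3 differences were below 0, which was so for 16.2% of all genes. Csf1 differed by 0.39, 0.52 and −0.09 and Mertk by 0.66, −0.24 and −0.04.

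**Figure D3:**
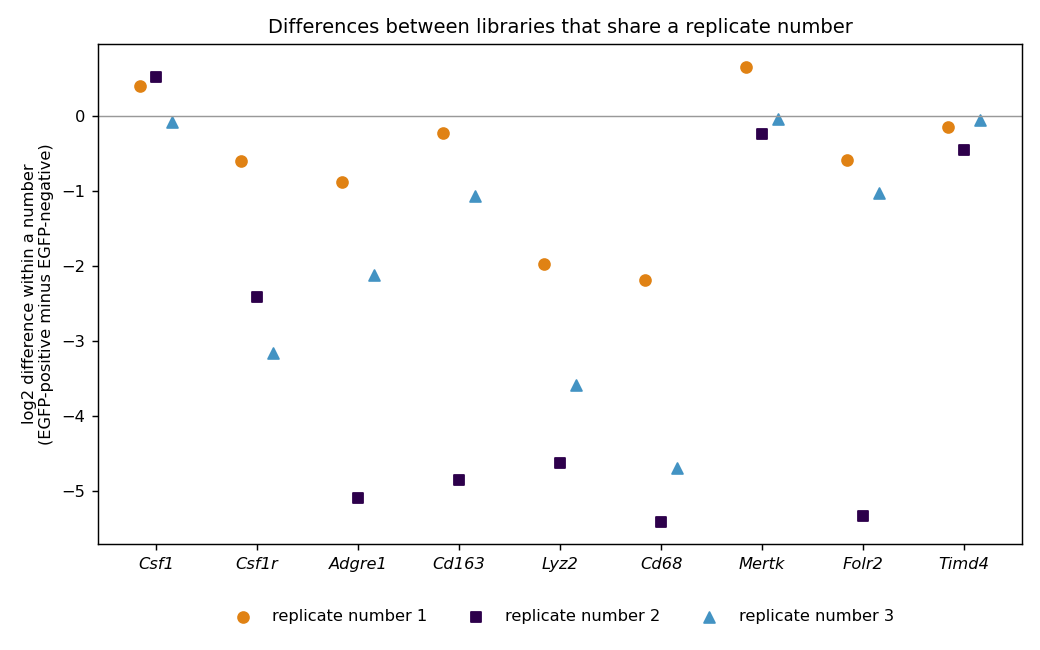
Log2 difference between the EGFP-positive and the EGFP-negative library that share a replicate number (vertical axis) for each member; circles, squares and triangles are replicate numbers 1, 2 and 3. Within number 1 the differences of Csf1r, Adgre1, Cd163 and Folr2 lie between −0.88 and −0.22. Of the 3 numbers, Cd68 and Lyz2 each lie furthest below 0 in number 2, at −5.41 and −4.63, where Folr2, Adgre1 and Cd163 also lie below Lyz2.

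Over a list of other macrophage genes, EGFP-positive library 1 lay between the other EGFP-positive libraries and the EGFP-negative ones. The 27 genes averaged 5.59, 3.12 and 2.61 in EGFP-positive libraries 1, 2 and 3, and 6.99, 7.11 and 6.08 in the EGFP-negative libraries. Their median difference was −3.75, 25 of 27 had a lower mean, 16 had groups that did not overlap and 20 an unadjusted p under 0.05, all of these lower, and 0 passed adjustment in limma. The defining markers differed in how far they stood above background in EGFP-positive library 1. C1qa, a complement gene of macrophages, read 8.44 there against 3.04 and 1.57 in libraries 2 and 3, and 9.80, 9.25 and 7.59 in the EGFP-negative libraries. Ptprc, the common leukocyte antigen CD45, read 4.17, 1.45 and 2.21 against 5.34, 8.53 and 8.88. Aif1, which encodes IBA1, read 2.60, 1.36 and 1.00 against 6.77, 6.35 and 3.95. Fcgr1, an antibody receptor, read 2.78 in EGFP-positive library 1 and between 3.34 and 3.88 in the EGFP-negative libraries. Itgam read 1.42 in EGFP-positive library 1, and also only 1.796, 1.705 and 2.356 in the EGFP-negative libraries. Siglec1 read between 1.54 and 1.79 in all 6 libraries. These low readings are thus not particular to EGFP-positive library 1.

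A list of the CSF1 receptor, its ligands and the adaptors, phosphatases and kinases that carry its signal had 19 measured genes, among them Csf1, Csf1r and Il34. Of these 0 passed adjustment in limma, 5 were lower at an unadjusted p under 0.05 and 0 higher. The median difference was −0.15, and it turned to 0.24 when arrays were scaled to ribosomal protein genes, a scaling that moved the median of all genes to 0.38. The 4 whose groups did not overlap are immune-cell genes: Tyrobp, the adaptor DAP12 (−4.71, SE 1.37), the phosphatases Ptpn6 (−3.40, SE 0.90) and Inpp5d (−1.67, SE 0.40), and the kinase subunit Pik3cg (−1.01, SE 0.35). Stat3, which is used by many cell types, read between 7.26 and 8.48 in all libraries.

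Of 15 transcription factors of myeloid cells, 0 passed adjustment, 3 were lower and 2 higher at an unadjusted p under 0.05, with a median difference of −0.55. Spi1, which encodes PU.1, read 1.95, 1.57 and 1.40 against 2.35, 3.84 and 3.36, with no overlap. Mef2c (0.90, SE 0.19) and Zeb2 (0.91, SE 0.32), which are also used outside the blood lineages, were higher in all EGFP-positive libraries. For other colony-stimulating factors and their receptors the count was 3 of 11 lower, 0 higher and 0 adjusted. Csf2rb, the shared chain of the GM-CSF receptor, differed by −2.27 (SE 0.61) and Flt3, a receptor of dendritic cell precursors, by −0.73 (SE 0.14), the latter over values between 1.42 and 2.42.

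Of 14 measured genes of a tissue-resident macrophage list, 13 had a lower mean, 2 were lower at an unadjusted p under 0.05 and 1 had groups that did not overlap. Among all genes 53.6% had a lower mean, 3.43% were lower at that p and 6.04% had lower values without overlap. The median difference of the list was −0.65, with library means of 5.45, 5.02 and 3.87 against 6.11, 6.78 and 5.09. F13a1, a clotting factor subunit of resident macrophages, read 6.32, 1.74 and 0.05 against 8.51, 7.61 and 5.91. In a list of genes tied to the protective, adrenergic state of muscularis macrophages, all 10 had a lower mean, as did 53.6% of all genes. Of these 10, 4 had an unadjusted p under 0.05. The median difference was only −0.41, and it ran from −1.91 to −0.015 over the other settings. The genes named next are among those with the largest differences. Retnla read 5.64, 3.06 and 1.45 against 7.52, 8.81 and 6.55, Arg1, the arginase of alternatively activated macrophages, 6.22, 1.54 and 1.40 against 7.50, 8.46 and 5.50, and Hmox1, which breaks down haem, differed by −1.91 (SE 0.34). In limma, 0 genes of either list passed adjustment.

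Lists built around the members' own functions and families hold the members themselves, and the lists were not tested against each other. Of 15 lysosome and endosome genes 14 had a lower mean, with a median of −0.30, which turned to 0.09 when scaled to ribosomal protein genes, and 4 at an unadjusted p under 0.05; Ctsh, a cathepsin, differed by −0.93 (SE 0.20). Of 16 phagocytic receptors and clearance genes 1 was lower, Dock2 (−3.20, SE 0.73), and 1 higher at that level, with a median of −0.03 (0.37 when scaled to ribosomal protein genes). The Dock2 difference ran from −3.93 to −2.80 with 1 library left out, but shrank to −0.32 at its smallest over all other settings. Of 9 genes of haem and iron handling 3 were lower, among them the iron transporter Slc11a1 (−1.79, SE 0.65), with a median of −0.61, and of 7 folate genes 0 were lower or higher, with a median of 0.23. The 6 lysozyme genes, the 4 TIM genes and the 8 adhesion receptor genes counted 2, 1 and 1 lower genes, with medians of −0.05, −0.20 and −0.52; the first 2 of these turned to 0.34 and 0.20 when scaled to ribosomal protein genes.

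Markers of other blood-derived cells also read lower in the same libraries, and their part in the member values was not tested. The 9 monocyte and inflammatory genes averaged 4.11, 2.89 and 3.73 against 5.56, 6.41 and 6.59, with 6 lower at an unadjusted p under 0.05; Il1b read 4.40, 2.00 and 4.11 against 8.27, 8.50 and 8.31 and Ccr2, the receptor that draws monocytes into tissue, 4.81, 0.84 and 1.21 against 6.70, 6.96 and 6.57. Lyz2, Cd68 and Csf1r are also expressed by monocytes, and these bulk values do not separate the cells. The 11 dendritic cell genes averaged 2.33, 2.38 and 2.23 against 2.52, 3.19 and 3.12, with 5 lower. The 10 neutrophil genes averaged 2.48, 1.76 and 2.88 against 3.15, 3.47 and 4.57, with 2 lower. Both S100a8 and S100a9, found in neutrophils and monocytes, were highest in EGFP-negative library 3, at 9.92 and 9.75.

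Lymphocyte genes followed too. The 6 B and plasma cell genes averaged 1.83, 0.97 and 1.00 against 2.81, 4.92 and 5.77, and Jchain, the joining chain of secreted antibodies, read 2.86, 0.16 and 0.13 against 5.25, 10.33 and 8.71. The 10 genes of T, NK and mast cells averaged 1.63, 1.31 and 1.26 against 1.82, 2.63 and 2.69, close to background in the EGFP-positive libraries. On the other side, the 10 enteric glia genes averaged 6.66, 6.29 and 8.44 against 4.67, 6.02 and 5.66, with 5 higher at an unadjusted p under 0.05, while the 15 pan-neuronal genes averaged 3.10, 3.02 and 6.38 against 3.21, 3.37 and 3.62. On the brightest probe set of each gene, the library with the most neuronal and glial signal was therefore also the library with the lowest value of Csf1r, Cd68, Lyz2, Adgre1, Cd163, Folr2, Mertk and Csf1. For Csf1 this was not so on probe sets 1448914_a_at and 1425154_a_at.

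**Figure D4:**
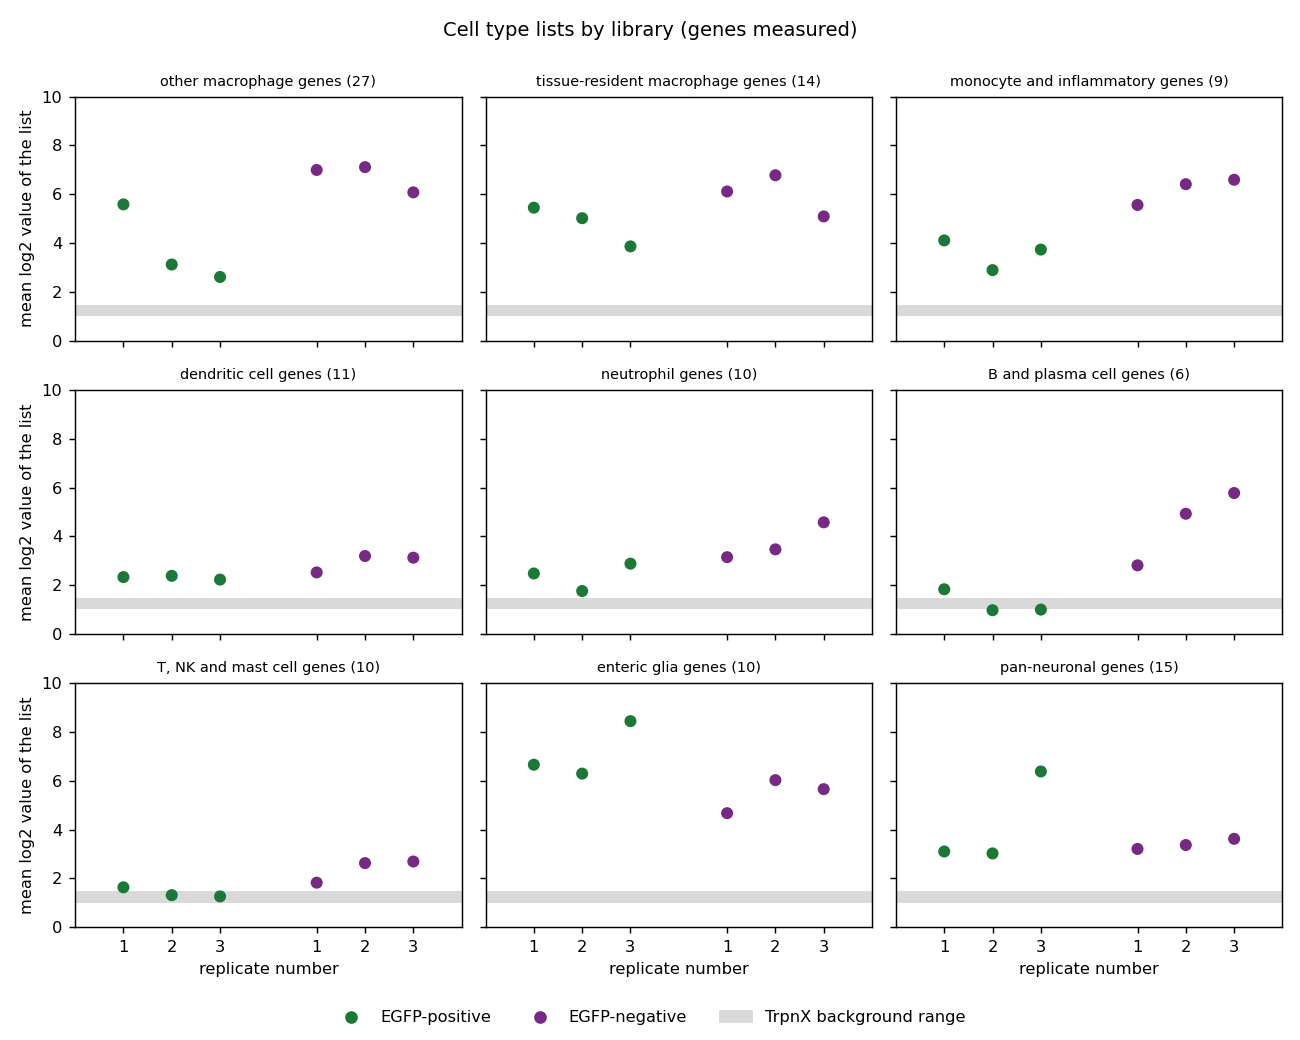
Mean log2 value (vertical axis) of the measured genes of 9 cell type lists in each library, by replicate number, EGFP-positive in green and EGFP-negative in purple; the grey band is the TrpnX background range. The macrophage mean of EGFP-positive library 1, 5.59, lies nearer to the EGFP-negative libraries (6.08 to 7.11) than to the other 2 EGFP-positive libraries, and the pan-neuronal mean is high in EGFP-positive library 3 alone, at 6.38.

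The genes most like Csf1r and Csf1 over the 6 libraries were sought among genes with a mean over 5 and an SD over 0.5. For Csf1r the 5 nearest of 2050 were Ccl6 (Pearson r 0.994), C1qb (0.983), Cd14 (0.981), Ccl9 (0.98) and Pltp (0.975). Of these, Ccl6 and Ccl9 encode chemokines, C1qb a complement chain, Cd14 a receptor for bacterial lipopolysaccharide and Pltp a phospholipid transfer protein. Ccl6 read 8.60, 6.80 and 4.01 against 10.02, 10.05 and 8.14, the same order of libraries as Csf1r. For Csf1 the nearest of 2051 were Sema3d (0.935), Ppl (0.928), Mboat1 (0.895), Tpbg (0.871) and Pigr (0.869), and none of these 5 was among the 5 of Csf1r. The 6 points of each correlation share arrays and cell mixture, and the values describe these libraries alone.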

How the data were processed

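Gene expression was measured on 1-colour Affymetrix Mouse Genome 430 2.0 arrays in 6 libraries, 3 EGFP-positive and 3 EGFP-negative. The deposited log2 expression values, 1 per probe set, had been made by the authors with RMA, per the submitters' processing notes; its version is not given in the sources used here, and that the scale is log2 was taken from the values. Library medians near 2 and unequal upper quartiles (4.08 to 4.86) are unusual for RMA with quantile normalisation. Symbols came from the platform annotation: of 45101 probe sets 34945 had 1 symbol, 932 several and 9160 none. For a gene with several probe sets, the 1 with the highest mean over the arrays was used, giving 18193 genes.

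Groups were compared with limma 3.58.1 (lmFit, eBayes, two-sided) in R 4.3.3 on the values as deposited, with Benjamini-Hochberg adjustment over all genes or all probe sets with 1 symbol; the scripts were tested on simulated data. Sequence matches and figures used Python 3.11.15, with pandas 2.3.3 for tables and matplotlib 3.10.9 for plots. All p-values refer to the spread between the 6 pooled libraries. Their number limits the precision.

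The members and gene lists were chosen with earlier results of these data known. The rule for named genes took all members, Mapt, of each list the 2 genes with the largest absolute difference, and the 5 genes most correlated with Csf1 and with Csf1r; of the 63 other genes for which settings were compared, 30 came from the list rule, and those outside the rule were chosen after their values were seen. Same-numbered libraries deviated together (correlations of 0.36, 0.32 and 0.42 over genes), so that the numbers were taken to pair the libraries; the labels do not state a shared animal or day. Other scalings, filters, weights, summaries, the replicate block and leaving out libraries gave 16 other settings.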

Additional observations from a re-analysis of the deposited data

How the results depend on the processing

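The differences of Csf1r, Adgre1, Lyz2 and Cd68 kept their direction under all 16 other settings, and those of Cd163 and Folr2 under the 15 that gave a value; no member passed the threshold in any. Restricting the test to genes above the median level left out Cd163, Folr2 and Timd4. With the replicate block 0 genes passed (smallest adjusted p 0.661), and it changed no call. Leaving out 1 library gave between 0 and 2 genes and between 0 and 2 probe sets past the threshold; the 2 of each came without EGFP-positive library 1 (Fermt3 and Ccr2, probe set adjusted p 0.0147 and 0.0402). Over the libraries left out in turn, differences ran from −5.16 to −3.41 for Cd68, −4.50 to −2.61 for Lyz2, −2.96 to −1.16 for Csf1r, −3.62 to −1.92 for Adgre1, −2.83 to −0.67 for Cd163, −3.40 to −1.14 for Folr2, −0.29 to −0.15 for Timd4, 0.08 to 0.50 for Csf1 and −0.10 to 0.37 for Mertk. Mertk also turned to −0.00081 with quantile normalization, and Timd4 to 0.18 with arrays centred on ribosomal protein genes, whose list mean was lower in every EGFP-positive library. Leaving out both EGFP-positive libraries 1 and 2, a setting added after seeing that Mapt was at background there, gave −0.18 for Csf1, −0.36 for Mertk, −0.75 for Gas6 and −1.43 for Folr1. Weighting the arrays gave −0.10 for Il34, 0.079 for Lyve1 and −0.069 for Axl.

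Of the 63 other genes, 56 kept 1 direction in every setting, and the other 7 turned. Of the 63, 30 were taken for large differences in these data and others after their values were seen. The count is therefore no measure of stability. Size was not part of this count, and the difference of Dock2, for 1, ran from −3.93 to −0.32. The lowest and highest values with 1 library left out were −0.17 and 0.59 for Il34, −1.50 and 0.62 for Lyve1, −0.23 and 0.33 for Axl, −0.090 and 0.72 for Gas6, −0.54 and 1.78 for Folr1, −0.11 and 2.00 for Mapt, and −0.14 and 1.44 for Tyro3. The cause was not tested. With 3 libraries a group, and values near background in at least 1 library for 5 members, small differences carry little weight.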
